A study of Mus musculus with 12 samples.

Results

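Mammary tumours from mice given paclitaxel were compared directly with tumours from mice given MBQ-167, without the vehicle group as an intermediate step. The comparison used 6 of the 12 RNA sequencing libraries of the series, 3 per drug, chosen by their treatment label. Paclitaxel was given at 5 mg/kg 1 time a week, and MBQ-167 at 100 mg/kg 5 times a week. The other 6 libraries, 3 from mice given both drugs on these schedules and 3 from mice given vehicle, entered the fit to set the spread between libraries. All tumours grew in the mammary fat pad number 4 of BALB/c mice from 300000 cells of the mouse mammary carcinoma line 4T1, made to express firefly luciferase. Treatment began on day 14, and tumours were taken on day 28. The doses and schedules of the drugs differ, so every value below compares 2 regimens and not 2 drugs at a matched dose. The labels number the libraries as biological replicates without saying that each is a separate mouse, so a p-value speaks only of the spread among these libraries. They also mention 2 occasions of cell injection without tying a library to either, so occasion and treatment cannot be told apart.

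Paclitaxel binds tubulin and stabilises microtubules, which stalls dividing cells in mitosis. MBQ-167, per the title of the series, inhibits Rac and Cdc42, small GTPases that steer actin assembly and cell migration. A pair of gene programmes recur below. Cells that sense interferon, or nucleic acid in the wrong place, activate a complex of transcription factors that includes STAT2 and IRF9 and binds the interferon-stimulated response element in the promoters of antiviral genes. Cells that are short of sterol release SREBP2 from the endoplasmic reticulum, and it switches on the genes of cholesterol synthesis and uptake.

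The 6 libraries held 12310300 to 17001562 counts each. Features linked to ribosomal RNA took 17.1%, 32.1% and 27.9% of counts in the paclitaxel libraries, against 31.0%, 36.8% and 30.1% in the MBQ-167 libraries (p = 0.3 by exact permutation of the 20 possible splits, two-sided, where 0.1 is the smallest possible). The epithelial genes Krt18 and Epcam, taken as markers of the tumour cells, were present in all 6 libraries. Krt18 stood at 462, 459 and 460 CPM (counts scaled to a common library size) in paclitaxel tumours, against 456, 386 and 536 CPM in MBQ-167 tumours. Epcam was present at 80.3, 84.7 and 112 CPM in paclitaxel tumours, against 73.5, 71.3 and 135 CPM in MBQ-167 tumours. Both genes overlapped between the drugs. Of 14 tested epithelial markers, 8 had higher and 6 lower values in paclitaxel tumours, and only Krt19 did not overlap. Krt19 had 20.9, 22.9 and 16.4 CPM in paclitaxel tumours, against 13.9, 10.2 and 10.8 CPM in MBQ-167 tumours. One library stood apart in its content of other cells: paclitaxel library 2 had a summed B cell marker level of 157 CPM and a summed adipocyte marker level of 247.8 CPM, while the other 5 libraries lay between 3.93 and 62.3 CPM and between 19.4 and 90.5 CPM.

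No single gene passed the test between the drugs. Of 18252 genes tested by edgeR, 0 (0%) had an adjusted p under 0.05, and the smallest adjusted p was 0.375, for Samd9l and others tied with it. At an unadjusted p under 0.05 there were 817 genes with higher values in paclitaxel tumours (4.48% of those tested) and 439 with lower values (2.41%). In 1576 genes (8.63%) all 3 paclitaxel libraries lay above all 3 MBQ-167 libraries, and in 1225 (6.71%) all 3 lay below. These shares are the background for every count that follows, and "apart" below means that the 3 libraries of one drug did not overlap with the 3 of the other. DESeq2, run on the same counts, called 36 of the 12938 genes to which it gave an adjusted p (0.278%), of which 31 had higher values in paclitaxel tumours (0.24%) and 5 lower values (0.0386%). limma voom called 0. The DESeq2 calls depended on single libraries: with each of the 6 libraries left out in turn, DESeq2 called between 2 and 21 genes. Only Rn7sk was called in all 6 of those fits.

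The interferon response gave the clearest group pattern. All 30 tested members of the list of type I interferon response genes had log2 fold changes above 0 (paclitaxel over MBQ-167), with a median of 0.51, while 49.6% of all tested genes lay above 0 and their median was -0.00. In 19 of the 30 genes (63.3%) the paclitaxel libraries lay apart and above, against the 8.63% given above for all genes, and 18 had an unadjusted p under 0.05. No member passed edgeR's adjusted threshold or that of DESeq2. Without paclitaxel library 2 the median was 0.42, all 30 were above 0, and 7 had an unadjusted p under 0.05. That number was 8 without paclitaxel library 3, 11 without MBQ-167 library 1 and 10 without MBQ-167 library 2, again with all 30 genes above 0.

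The promoters of these genes are shown first because the list is defined by a response to factors that bind them. Promoter windows of 250 bases upstream of the start were available from RefSeq (GRCm38.p6) for 20 of the 30 members. The core of the interferon-stimulated response element, searched as GAAANNGAAA or TTTCNNTTTC on the other strand, occurred in 10 of these 20 genes (50%). It occurred in 9 of the 11 matched genes of a list of interferon gamma effectors (81.8%), and in 978 of 32851 windows of all genes (2.98%). The lists were counted by gene, with a match in any window of the gene, and the background by window, so the shares are in unlike units. Capitals mark the matches in 3 examples, each printed on its gene's strand. In Bst2 the 2 matches overlap. The windows are chr7:104465194-104465443 (minus strand) for Trim30a, chr19:34640639-34640888 (plus strand) for Ifit1 and chr8:71537473-71537722 (minus strand) for Bst2.
Trim30a: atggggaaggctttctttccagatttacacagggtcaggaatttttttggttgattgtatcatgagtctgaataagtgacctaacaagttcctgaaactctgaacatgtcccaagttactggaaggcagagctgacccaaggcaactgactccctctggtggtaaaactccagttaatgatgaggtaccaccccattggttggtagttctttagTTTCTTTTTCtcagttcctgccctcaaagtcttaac
Ifit1: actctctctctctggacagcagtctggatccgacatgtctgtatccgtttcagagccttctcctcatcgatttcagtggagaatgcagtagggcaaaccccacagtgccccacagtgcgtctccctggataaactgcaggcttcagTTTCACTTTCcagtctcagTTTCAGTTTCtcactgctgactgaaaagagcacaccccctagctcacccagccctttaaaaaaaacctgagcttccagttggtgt
Bst2: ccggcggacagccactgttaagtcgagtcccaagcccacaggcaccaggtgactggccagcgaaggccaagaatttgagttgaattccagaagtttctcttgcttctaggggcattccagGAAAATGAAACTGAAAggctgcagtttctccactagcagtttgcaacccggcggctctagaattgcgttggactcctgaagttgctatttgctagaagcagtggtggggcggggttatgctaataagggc

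Among the transducers of the pathway, Irf9, the DNA-binding partner of STAT2, had the smallest difference of the list, 0.16 ± 0.14 (SE, n = 3 each). Irf7, which amplifies the response, was apart at 25.9, 33.1 and 42.3 CPM in paclitaxel tumours, against 20.6, 24.6 and 24.4 CPM in MBQ-167 tumours, a difference of 0.54 ± 0.17. The cytosolic sensor genes Ifih1 (MDA5) and Zbp1, which sense double-stranded RNA and Z-form nucleic acid, were both apart. Zbp1 had 33.1, 40.8 and 32.4 CPM in paclitaxel tumours, against 26.8, 23.8 and 22.7 CPM in MBQ-167 tumours. Ddx58, which encodes the RNA sensor RIG-I, overlapped between the drugs, with a difference of 0.30 ± 0.14.

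Among the antiviral effectors, Cmpk2, a mitochondrial nucleotide kinase induced by interferon, had the largest difference. Its values were 9.93, 16.8 and 16.01 CPM in paclitaxel tumours, against 6.88, 6.499 and 7.06 CPM in MBQ-167 tumours, a log2 difference of 1.06 ± 0.30 with a 95% interval of 0.41 to 1.71. The lowest paclitaxel library was above the highest MBQ-167 library. Ifi44 had 44.3, 59.2 and 60.9 CPM in paclitaxel tumours, against 29.4, 30.5 and 36.3 CPM in MBQ-167 tumours, a difference of 0.77 ± 0.19. The tethering factor gene Bst2 had 45.7, 60.0 and 53.5 CPM in paclitaxel tumours, against 42.4, 37.8 and 34.3 CPM in MBQ-167 tumours. Ifit1, whose product binds viral RNA caps, had 11.3, 16.4 and 19.1 CPM in paclitaxel tumours, against 10.2, 9.17 and 10.6 CPM in MBQ-167 tumours. Trim30a, the third gene with its promoter printed above, differed by 0.41 ± 0.15. Parp14, an ADP-ribosyltransferase, was apart at 146, 180 and 144 CPM in paclitaxel tumours, against 114, 121 and 118 CPM in MBQ-167 tumours. Not every classical member separated: Rsad2 (viperin), Oasl1, Dhx58 and Stat2 overlapped between the drugs, with differences of 0.23 to 0.33.

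**Figure D1:**
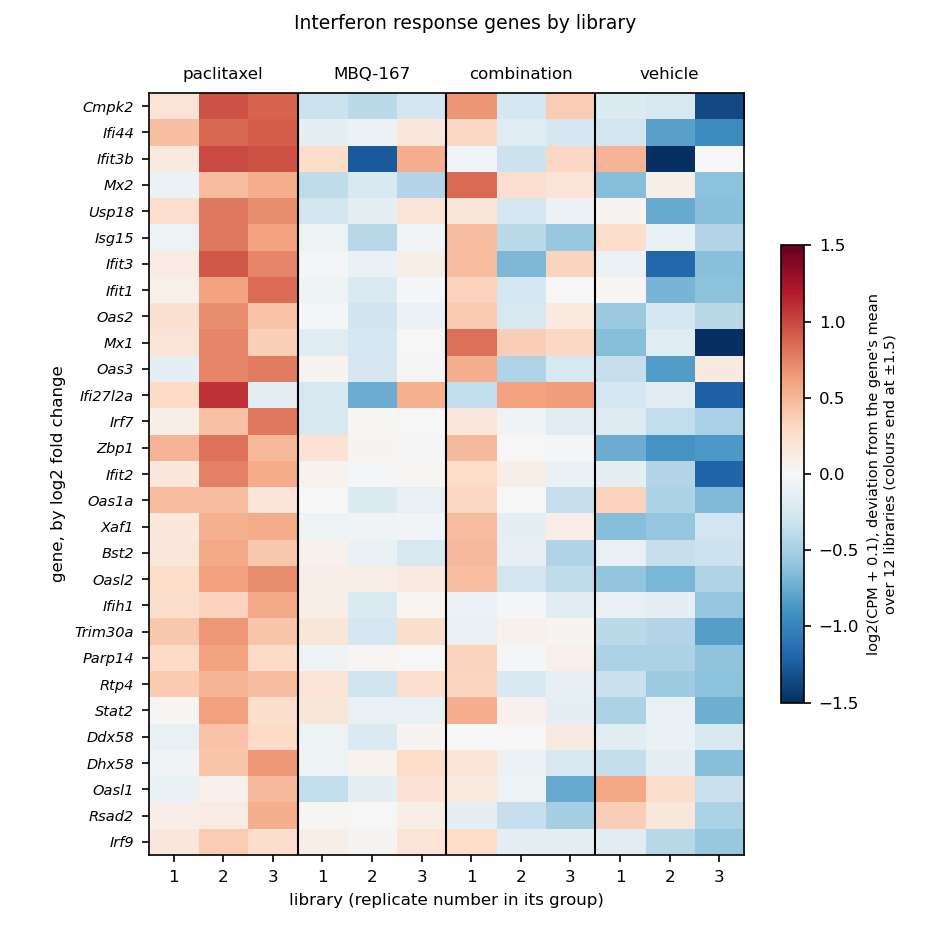
Heat map of 29 of the 30 type I interferon response genes (rows, ordered by log2 fold change of paclitaxel over MBQ-167) in all 12 libraries (columns), coloured by each gene's deviation from its own mean over the 12 libraries in log2(CPM + 0.1). Paclitaxel libraries 2 and 3 are the reddest columns and paclitaxel library 1 is paler, while the MBQ-167 columns are near white and the vehicle columns blue.

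Library 1 was the lowest of the paclitaxel libraries for 26 of the 30 genes. Set against vehicle in the same fit, the median of the 30 genes was 0.92 in paclitaxel tumours and 0.38 in MBQ-167 tumours; both use the same 3 vehicle libraries. Correction for GC content, described below, left the median at 0.55 with all 30 genes above 0. The number with an unadjusted p under 0.05 was then 14, in place of 18.

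Genes of the Ifi200 family, which encode interferon-inducible sensors of DNA and lie together on chromosome 1, had the same direction. All 11 tested members had values above 0, with a median of 0.63, and 7 of them (63.6%) were apart with paclitaxel above. Mndal had 30.2, 37.6 and 29.0 CPM in paclitaxel tumours, against 20.9, 18.5 and 16.7 CPM in MBQ-167 tumours, a difference of 0.79 ± 0.15 (DESeq2 adjusted p = 0.0152, edgeR adjusted p = 0.375). Ifi202b and Ifi204 were also called by DESeq2, with differences of 0.63 ± 0.14 and 0.60 ± 0.13. These genes are close relatives in sequence, so reads may be shared between them, and the family was picked after its values were seen. Samd9l, an interferon-induced gene of antiviral defence, had the smallest edgeR p of all genes. Its values were 68.2, 81.5 and 68.8 CPM in paclitaxel tumours, against 35.6, 39.4 and 45.2 CPM in MBQ-167 tumours, 1.82 times as high, with a log2 difference of 0.86 ± 0.16 (DESeq2 adjusted p = 0.0100). DESeq2 also called Herc6, which attaches the ubiquitin-like protein ISG15 to its targets in mice, at 40.6, 55.7 and 48.8 CPM in paclitaxel tumours, against 29.3, 31.8 and 22.8 CPM in MBQ-167 tumours. The transcripts of these genes are poor in G and C, at 36.1% to 44.7% for the Ifi200 family and 38.8% for Samd9l, a property that moved with the comparison as a whole.

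Genes induced mainly by interferon gamma pointed the same way with less separation. All 20 tested members had values above 0, with a median of 0.47, but only 6 (30%) were apart and 4 had an unadjusted p under 0.05. Irgm1, an immunity-related GTPase, had 97.6, 150 and 101 CPM in paclitaxel tumours, against 76.6 to 85.2 CPM in the 3 MBQ-167 tumours, a difference of 0.53 ± 0.20. The T cell attractant gene Cxcl11 had 6.80, 9.24 and 6.44 CPM in paclitaxel tumours, against 3.87, 4.33 and 3.77 CPM in MBQ-167 tumours. Both genes were apart. Ido1, which degrades tryptophan, overlapped between the drugs at 1.45, 4.82 and 2.02 CPM in paclitaxel tumours, against 0.93, 1.66 and 1.16 CPM in MBQ-167 tumours. This list rested on single libraries: without paclitaxel library 2 the median was 0.23, 3 of the 20 genes lay below 0, and 0 had an unadjusted p under 0.05. Without MBQ-167 library 3 the median was 0.30, and 1 gene had an unadjusted p under 0.05. Genes of antigen presentation overlapped between the drugs, with 0 of 15 class I genes and 0 of 7 class II genes apart, and medians of 0.10 and -0.25. Neither sign held when a library was left out: the class I median was -0.05 without MBQ-167 library 3 and -0.01 without paclitaxel library 2, and the class II median was 0.06 without MBQ-167 library 1.

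Cholesterol synthesis ran in the opposite direction. Of 20 tested genes of sterol synthesis and uptake under SREBP2, 19 had log2 fold changes below 0, against 50.4% of all tested genes, with a median of -0.36. In 8 of them (40%) the paclitaxel libraries lay apart and below, against 6.71% of all genes, and 7 had an unadjusted p under 0.05, though none passed the adjusted threshold of edgeR or DESeq2. Leaving out each library in turn gave medians from -0.41 to -0.30, and the correction for GC content gave -0.34. Set against vehicle, the median of the 20 genes was -0.38 in paclitaxel tumours and -0.05 in MBQ-167 tumours, again with the vehicle libraries in common. Without vehicle library 3 those medians were -0.30 in paclitaxel tumours and 0.07 in MBQ-167 tumours.

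Among the regulators, Srebf2, which encodes SREBP2 itself, had 87.4, 94.1 and 87.5 CPM in paclitaxel tumours, against 111, 122 and 118 CPM in MBQ-167 tumours, a difference of -0.38 ± 0.12. Insig1, which holds SREBP2 in the endoplasmic reticulum and is also one of its targets, had 49.9, 43.6 and 49.4 CPM in paclitaxel tumours, against 65.3, 62.5 and 59.2 CPM in MBQ-167 tumours. In both genes the groups were apart. Among the enzymes, Lss, which closes the sterol rings, had 15.8, 21.3 and 18.7 CPM in paclitaxel tumours, against 21.6, 25.3 and 30.7 CPM in MBQ-167 tumours, a difference of -0.48 ± 0.16. Mvd, which makes the isoprene unit, had 7.71, 7.27 and 7.92 CPM in paclitaxel tumours, against 8.95, 12.8 and 9.98 CPM in MBQ-167 tumours. Both were apart. Fdps was the single member above 0, at 0.01 ± 0.33.

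The sterol regulatory element, searched as TCACNCCAC or GTGGNGTGA on the other strand, occurred in 1 of the 14 matched genes of this list (7.14%). It occurred in 1.05% of all windows, with the list again counted by gene. The match lay in Hmgcs1, which makes the first committed intermediate, 129 bases upstream of the start, in the window chr13:119690101-119690350 (plus strand). It is printed with the match in capitals to show where that element sits.
Hmgcs1: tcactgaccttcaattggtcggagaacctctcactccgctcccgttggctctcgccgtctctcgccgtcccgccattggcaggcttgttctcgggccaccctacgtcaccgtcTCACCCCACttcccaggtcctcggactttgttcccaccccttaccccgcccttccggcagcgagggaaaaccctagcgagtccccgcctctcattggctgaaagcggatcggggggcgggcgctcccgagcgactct

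Hmgcs1 itself had 56.4, 68.3 and 58.2 CPM in paclitaxel tumours, against 67.0, 76.2 and 76.9 CPM in MBQ-167 tumours, with an overlap of paclitaxel library 2 and a difference of -0.27 ± 0.13. Of the fatty acid genes, Scd2, a desaturase, was apart at 367, 330 and 405 CPM in paclitaxel tumours, against 451, 457 and 574 CPM in MBQ-167 tumours. Fasn, the fatty acid synthase, overlapped, with a difference of -0.30 ± 0.14. Scd1 went the other way in paclitaxel library 2 alone, at 71.4, 426 and 45.2 CPM in paclitaxel tumours, against 70.6, 63.8 and 154 CPM in MBQ-167 tumours; the summed adipocyte markers were highest in that same library, and their part in the result was not tested.

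**Figure D2:**
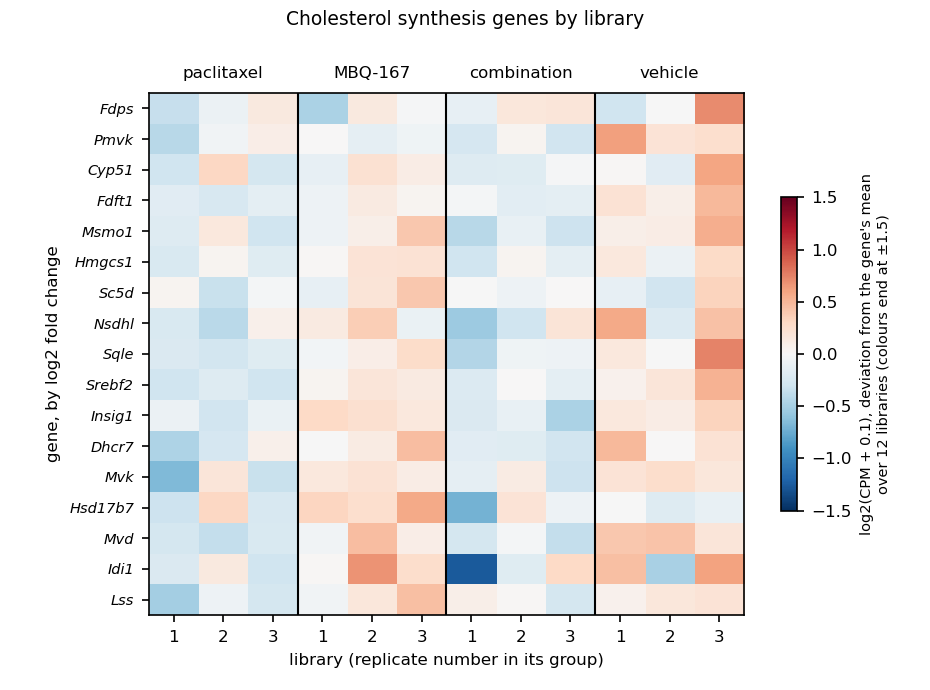
Heat map of 17 of the 20 sterol genes (rows, ordered by log2 fold change of paclitaxel over MBQ-167) in all 12 libraries, coloured as deviation from each gene's mean in log2(CPM + 0.1). The paclitaxel and combination columns tend to blue, and the MBQ-167 and vehicle columns to red, with MBQ-167 library 3 redder than MBQ-167 library 1. In the mean log2 level of all 20 genes, 3 libraries lay near the mean of the 12. They were MBQ-167 library 1 (0.006), vehicle library 2 (0.009) and combination library 2 (-0.036).

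Neutrophil genes were lower in paclitaxel tumours, with a wider spread. Of 20 tested markers, 19 had values below 0, the median was -0.61, and in 6 (30%) the paclitaxel libraries lay apart and below; 2 had an unadjusted p under 0.05. In bulk tumour RNA, fewer cells of a type and less RNA per cell cannot be told apart. The markers summed to 621, 498.5 and 560 CPM in paclitaxel tumours, against 764, 755 and 717 CPM in MBQ-167 tumours. The 6 genes that were apart include granule genes: Ltf (lactoferrin) had 4.87, 3.56 and 1.04 CPM in paclitaxel tumours, against 9.60, 8.95 and 10.5 CPM in MBQ-167 tumours, a difference of -1.60 ± 0.67. Cxcr2, the receptor that draws neutrophils to CXC chemokines, had 5.54, 3.16 and 2.95 CPM in paclitaxel tumours, against 8.02, 7.44 and 8.46 CPM in MBQ-167 tumours, and Camp, Ngp, Cd177 and Retnlg completed the set. The alarmin gene S100a8 overlapped, with 43.6, 22.2 and 26.9 CPM in paclitaxel tumours, against 39.2, 59.4 and 64.5 CPM in MBQ-167 tumours. The mean level of the list, as an average of log2 values, did not overlap between the drugs, for which the exact two-sided permutation test gave p = 0.1, the smallest it can give. Relative to the mean of all libraries it was -0.21, -0.88 and -1.09 in paclitaxel tumours, against -0.11, 0.16 and 0.18 in MBQ-167 tumours. The gap between library 1 of each drug was small beside the spread within paclitaxel tumours (SD 0.461). With each library left out in turn the median ran from -0.88 to -0.53. Against the 3 vehicle libraries shared by both, the medians were -2.45 in paclitaxel tumours and -1.72 in MBQ-167 tumours. Vehicle library 3 had the highest mean level of these genes, and without it the medians were -1.505 in paclitaxel tumours and -0.65 in MBQ-167 tumours.

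Other immune cells were less clear. Natural killer cell genes gave a median of 0.21 (0.48 without MBQ-167 library 2), with 4 of 11 tested genes (36.4%) apart and above (Ncr1, Klrd1, Klrc1 and Txk) and Eomes apart and below. The mean level of this list also did not overlap between the drugs, with paclitaxel above (exact two-sided permutation test, p = 0.1, the smallest it can give). The gap was small: levels were 0.21, 0.58 and 0.52 in paclitaxel tumours, against -0.09, 0.13 and -0.13 in MBQ-167 tumours. Ncr1, the receptor NKp46 that is specific to these cells, had 0.72, 0.79 and 1.10 CPM in paclitaxel tumours, against 0.07, 0 and 0.30 CPM in MBQ-167 tumours, so the values rest on few counts. The cytotoxic granule genes Gzma and Prf1 overlapped. No marker of T cells, macrophages, dendritic cells, B cells, adipocytes or erythroid cells was apart in either direction. The B cell list had a median of 0.77, but without paclitaxel library 2 it was -3.47, and the T cell list went to -0.57 without that library, against 0.18 with it, and to -0.08 after the correction for GC content. The adipocyte list likewise went to -0.79, against 0.92. Haemoglobin genes varied within the paclitaxel group more than between the drugs: Hbb-bs had 81.1, 7.43 and 21.0 CPM in paclitaxel tumours, against 74.5, 30.9 and 86.7 CPM in MBQ-167 tumours.

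**Figure D3:**
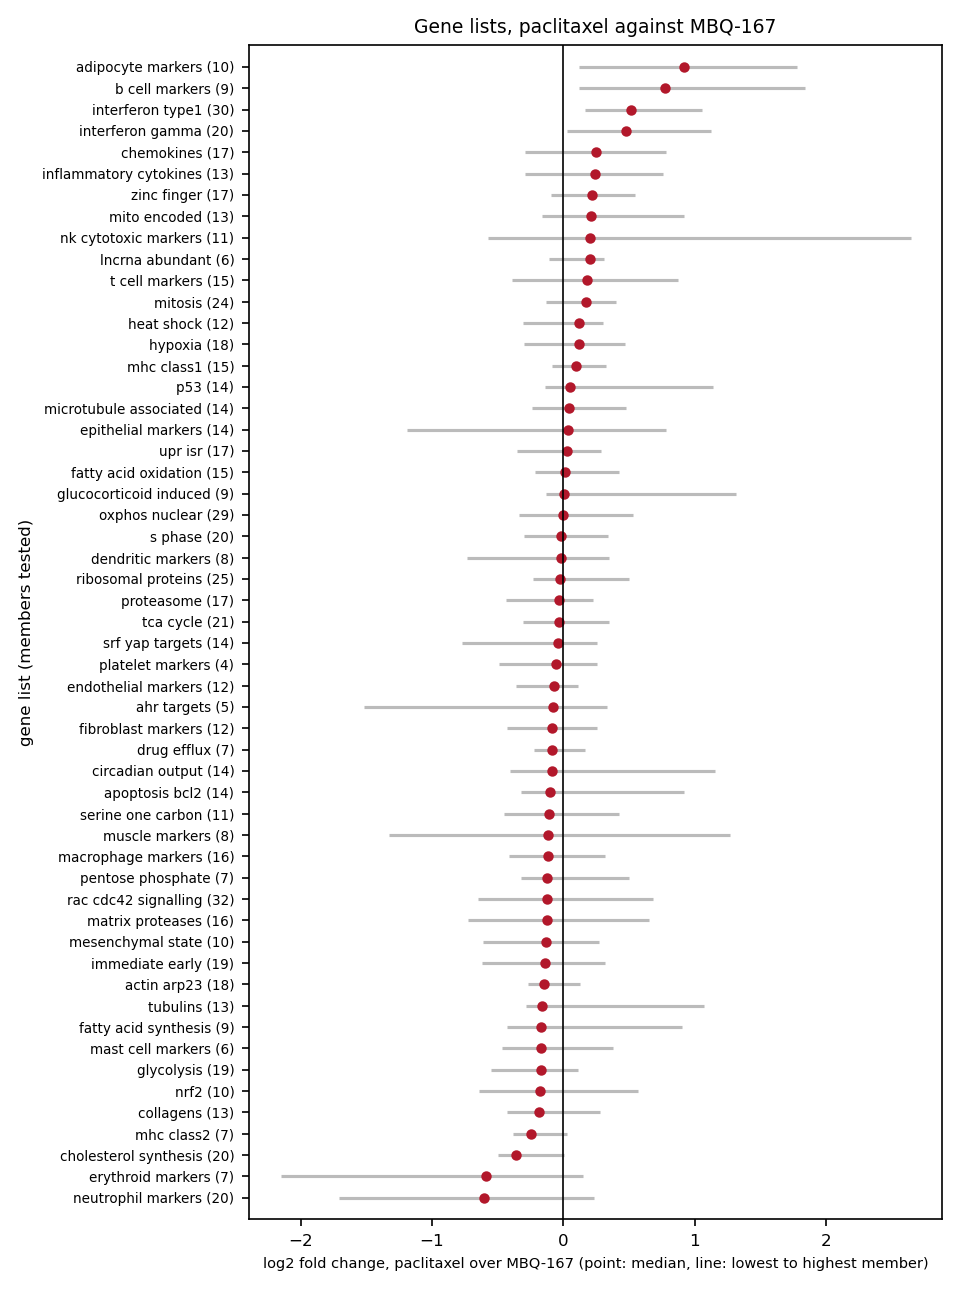
Median log2 fold change of paclitaxel over MBQ-167 (point) and the range from the lowest to the highest member (line) for each gene list with at least 4 tested members, whose number is in brackets. The type I interferon list lies wholly above 0 at a median of 0.51 and the cholesterol list is almost wholly below at -0.36, while the adipocyte and B cell lists at the top rest on paclitaxel library 2.

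The genes on which the drugs act differed little. Rac1 had 229, 260 and 245 CPM in paclitaxel tumours, against 266, 268 and 259 CPM in MBQ-167 tumours, a log2 difference of -0.11 with a 95% interval of -0.36 to 0.13. Cdc42 overlapped with an interval of -0.46 to 0.07, and Pak1, a kinase activated by both GTPases, with one of -0.27 to 0.35. Of 32 tested genes of Rac and Cdc42 signalling, 1 was apart and above and 3 (9.38%) were apart and below, around a median of -0.12 (-0.07 without paclitaxel library 2, -0.03 after the correction for GC content described below). Wasf1, which links Rac to the Arp2/3 complex, was apart at 7.52, 7.51 and 9.33 CPM in paclitaxel tumours, against 13.4, 14.6 and 10.4 CPM in MBQ-167 tumours, a difference of -0.65 ± 0.31. Genes of actin and the Arp2/3 complex had small differences: 14 of 18 lay below 0 and 4 above, 7 (38.9%) were apart and below, and 0 had an unadjusted p under 0.05. Their median was -0.15, from -0.26 for Arpc4 to 0.13 for Tmsb4x, and Arpc1b had 264, 252 and 255 CPM in paclitaxel tumours, against 317, 288 and 286 CPM in MBQ-167 tumours. After correction for GC content that median was -0.10. Arhgap5, a GTPase-activating protein, was called by DESeq2 (adjusted p = 0.0236) at 137, 122 and 110 CPM in paclitaxel tumours, against 79.2, 74.95 and 75.97 CPM in MBQ-167 tumours.

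Tubulin genes, whose products bind paclitaxel, had a median of -0.16 over 13 tested members, of which 3 (23.1%) were apart and below. Without MBQ-167 library 3 that median was -0.05, and after correction for GC content -0.08. Tubb5 was among those apart, at 834, 763 and 837 CPM in paclitaxel tumours, against 976, 904 and 841 CPM in MBQ-167 tumours. The gap between the groups was small, and the 95% interval of the difference was -0.43 to 0.11. Tubb6 overlapped, with a difference of -0.10 ± 0.16. Genes of mitosis had a median of 0.17, with 6 of 24 (25%) apart and above, and a median of 0.07 after correction for GC content and 0.09 without MBQ-167 library 1. Top2a, the topoisomerase of dividing cells, had 389, 439 and 383 CPM in paclitaxel tumours, against 283, 327 and 308 CPM in MBQ-167 tumours, a difference of 0.40 ± 0.12. Kif11, the motor that separates spindle poles, and the proliferation marker gene Mki67 were also apart, while Cdk1, Plk1 and Aurka overlapped, with differences of -0.00 ± 0.12, -0.12 ± 0.16 and -0.13 ± 0.14. Of the p53 targets, Ccng1 was apart at 61.1, 65.7 and 53.6 CPM in paclitaxel tumours, against 45.3, 41.1 and 38.3 CPM in MBQ-167 tumours, whereas Cdkn1a (p21) overlapped at -0.01 ± 0.14. The drug efflux pump genes Abcb1a and Abcb1b overlapped, with intervals of -1.31 to 0.87 and -0.31 to 0.65.

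Central carbon metabolism, which the title of the series names, gave small differences between the drugs. Glycolysis genes had a median of -0.17, with 2 of 19 (10.5%) apart and below. That median was -0.10 without paclitaxel library 2, -0.11 without MBQ-167 library 1 and -0.09 after correction for GC content. Tricarboxylic acid cycle genes had a median of -0.04 (-0.12 without paclitaxel library 3), and nuclear genes of oxidative phosphorylation a median of -0.00. The glucose transporter gene Slc2a1 had 181, 140 and 156 CPM in paclitaxel tumours, against 174, 212 and 150 CPM in MBQ-167 tumours. Pfkl, the liver type phosphofructokinase, was apart by a small gap, at 193, 187 and 193 CPM in paclitaxel tumours, against 249, 241 and 194 CPM in MBQ-167 tumours. Citrate synthase, Cs, was also apart, with a difference of -0.24 ± 0.11. The immediate early genes, induced within minutes of many stimuli, had a median of -0.14 (-0.03 without paclitaxel library 2, -0.06 after correction for GC content). Fos had 13.7, 7.51 and 9.94 CPM in paclitaxel tumours, against 10.3, 10.2 and 12.4 CPM in MBQ-167 tumours, and Fosb overlapped too. Of 16 tested matrix protease genes, 2 (12.5%) were apart and above, Mmp12 and Mmp13, and 1 (6.25%) apart and below, Mmp14. These shares are near those of all genes. The median of the list was -0.125 (-0.04 after correction for GC content, -0.02 without MBQ-167 library 3). Mmp14, the membrane-bound activator, had 233, 190 and 248 CPM in paclitaxel tumours, against 294, 282 and 284 CPM in MBQ-167 tumours. The growth factor gene Tgfb1 was apart and below, with a difference of -0.29 ± 0.12.

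Base composition moved with the comparison across the whole transcriptome. The log2 fold change and the GC content of the transcript had a Spearman correlation of -0.387 across 18144 genes, which are not independent replicates. Genes were ranked by GC content and cut into 10 equal groups. In the group with the lowest content (26.3% to 40.9%) the median was 0.28, and the paclitaxel libraries lay apart and above in 30.1%. In the group with the highest (57.7% to 86.2%) the median was -0.12, and they lay apart and below in 13%. Within each library, the correlation of expression with GC content, relative to the mean of all libraries, was -0.29, -0.24 and -0.11 in paclitaxel tumours, against 0.14, 0.01 and 0.05 in MBQ-167 tumours (exact two-sided permutation test, p = 0.1, the smallest possible). The 3 paclitaxel libraries lay below the 3 MBQ-167 libraries. A correction for each library by a spline on GC content removed the trend, leaving a correlation of -0.00714. It left 340 genes with higher and 335 with lower values at an unadjusted p under 0.05, in place of 817 and 439.

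**Figure D4:**
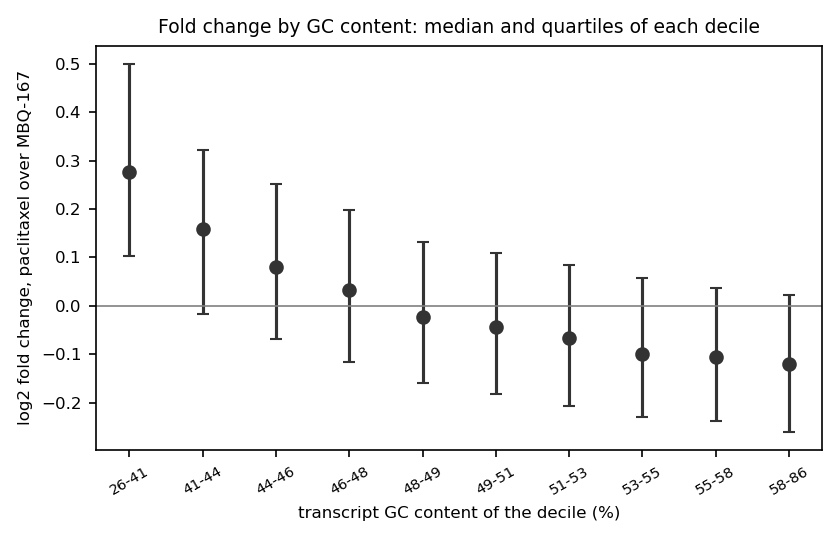
Median (point) and quartiles (line) of the log2 fold change of paclitaxel over MBQ-167 in each of 10 equal groups of genes by transcript GC content (horizontal axis, percent). The medians run down from 0.28 in the GC-poorest group to -0.12 in the GC-richest.

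Zinc finger genes were, at the median, poorer in G and C than all genes tested. These encode DNA-binding proteins, many of which carry a KRAB domain and silence transposable elements. Of 344 tested genes named Zfp, 80 (23.3%) were apart and above, and their median was 0.17 at a median GC content of 44.2%. Among all tested genes with a GC content of 43.5% to 45.6%, the median was 0.08 and 12.3% were apart and above. That range holds the median of the family but not all its members: Zfp518a lies at 36.7% and Zfp994 at 37.9%. In the range of 26.3% to 40.9% the median was 0.28, and 30.1% were apart and above. Whether the family differs from genes of matched GC content was not tested. DESeq2 called 8 of the genes named Zfp. Zfp518a had 23.7, 24.1 and 23.3 CPM in paclitaxel tumours, against 15.4, 15.02 and 14.6 CPM in MBQ-167 tumours, a difference of 0.66 ± 0.12. Zfp994 had 15.9, 16.04 and 12.9 CPM in paclitaxel tumours, against 7.52, 9.60 and 7.55 CPM in MBQ-167 tumours. In the shorter list of 17 tested zinc finger genes, at a median GC content of 40.5%, the median was 0.22. After correction for GC content it was 0.02, a value that covers this list and not the 344 genes. Over all 36 DESeq2 calls, 28 of the 31 genes with higher values lay below the median GC content of all genes (49.4%), and the 5 with lower values lay above it. The calls with higher values included Xpo1, the nuclear export receptor, Atr, a kinase of the DNA damage response, Dek, a chromatin protein, and Rb1cc1, which starts autophagosome formation. Fkbp3, a prolyl isomerase, had 50.9, 41.1 and 40.1 CPM in paclitaxel tumours, against 24.8, 24.4 and 28.2 CPM in MBQ-167 tumours. With the correction for GC content in DESeq2, 2 genes were called, Rn7sk and Ulk4, a member of the Unc-51-like kinase family at 81.0, 75.8 and 73.8 CPM in paclitaxel tumours, against 53.9, 52.9 and 51.1 CPM in MBQ-167 tumours.

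The genes with lower values in paclitaxel tumours that DESeq2 called were Padi1, Wdr38, Sphk1, Adipor1 and Rn7s1. Padi1, a peptidylarginine deiminase, had 6.94, 8.93 and 11.0 CPM in paclitaxel tumours, against 16.04, 13.9 and 20.2 CPM in MBQ-167 tumours, a difference of -0.90 ± 0.20 (DESeq2 adjusted p = 0.0271). Sphk1, which makes the lipid mediator sphingosine 1-phosphate, had 63.7, 54.5 and 58.5 CPM in paclitaxel tumours, against 87.7, 78.6 and 80.05 CPM in MBQ-167 tumours. The adiponectin receptor gene Adipor1 had 106, 110 and 115 CPM in paclitaxel tumours, against 143, 139 and 141 CPM in MBQ-167 tumours, a gap wider than the spread within either drug. Gstp1, a glutathione transferase, and Trp53bp2, which encodes a partner of p53, were apart and below without passing in edgeR or DESeq2, with differences of -0.59 ± 0.15 and -0.47 ± 0.12.

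The gene that DESeq2 called in all 6 fits with 1 library left out was a non-coding RNA, which edgeR and limma voom did not call. Rn7sk encodes 7SK RNA, which holds the elongation factor P-TEFb inactive, and lies on chromosome 9 from 78175303 to 78175633 (minus strand, GRCm38). It had 4684, 5282 and 4850 CPM in paclitaxel tumours, against 3174, 3088 and 3281 CPM in MBQ-167 tumours. The log2 difference was 0.63 ± 0.12, with a DESeq2 adjusted p of 3.65e-07, an edgeR adjusted p of 0.375 and a limma voom adjusted p of 0.115. Combination libraries had 4702, 4902 and 4259 CPM and vehicle libraries 5391, 5211 and 5012 CPM, so the 3 MBQ-167 libraries were the lowest of the 12. Scarna13, a small RNA of Cajal bodies, had 10.7, 9.16 and 10.1 CPM in paclitaxel tumours, against 6.59, 4.04 and 3.53 CPM in MBQ-167 tumours. The RNase MRP and RNase P RNAs, Rmrp and Rpph1, overlapped between the drugs, with differences of 0.16 ± 0.21 and 0.05 ± 0.22. Genes annotated as snRNA, snoRNA, scaRNA or miscellaneous RNA together took 0.831%, 0.840% and 0.777% of counts in paclitaxel tumours, against 0.640%, 0.717% and 0.690% in MBQ-167 tumours. This class holds Rn7sk, Rn7s1 and Scarna13 but not Rmrp or Rpph1. Its share is therefore not separate from the Rn7sk values above, and the share without Rn7sk was not computed. The labels call the molecule polyA RNA, whereas 7SK, 7SL, RNase MRP and RNase P RNAs are made by RNA polymerase III without a coded poly(A) tail.

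Rn7s1, a gene of 7SL RNA in the signal recognition particle, had the largest fold change of all. It had 43.6, 65.4 and 38.7 CPM in paclitaxel tumours, against 845, 2143 and 1213 CPM in MBQ-167 tumours, a difference of -4.83 ± 1.13 (DESeq2 adjusted p = 0.0237, edgeR adjusted p = 0.375). The other groups did not hold together: combination libraries had 1005, 65.3 and 78.6 CPM, and vehicle libraries 1757, 1766 and 79.3 CPM. Values near 1000 CPM and values under 100 CPM thus both occurred within a group. In edgeR fitted to the 6 libraries alone, where this spread does not enter, Rn7s1 was the only gene to pass (adjusted p = 0.000165). The annotated transcripts of Rn7s1 and of its neighbour Rn7s2 are both 300 bases long and differ at 0 positions, so how the authors' counting divided reads between them is uncertain. Rn7s2 overlapped between the drugs, at 45.1, 82.7 and 68.4 CPM in paclitaxel tumours, against 57.4, 74.8 and 70.9 CPM in MBQ-167 tumours. The sum of both genes was 88.7, 148 and 107 CPM in paclitaxel tumours, against 902, 2218 and 1284 CPM in MBQ-167 tumours.

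**Figure D5:**
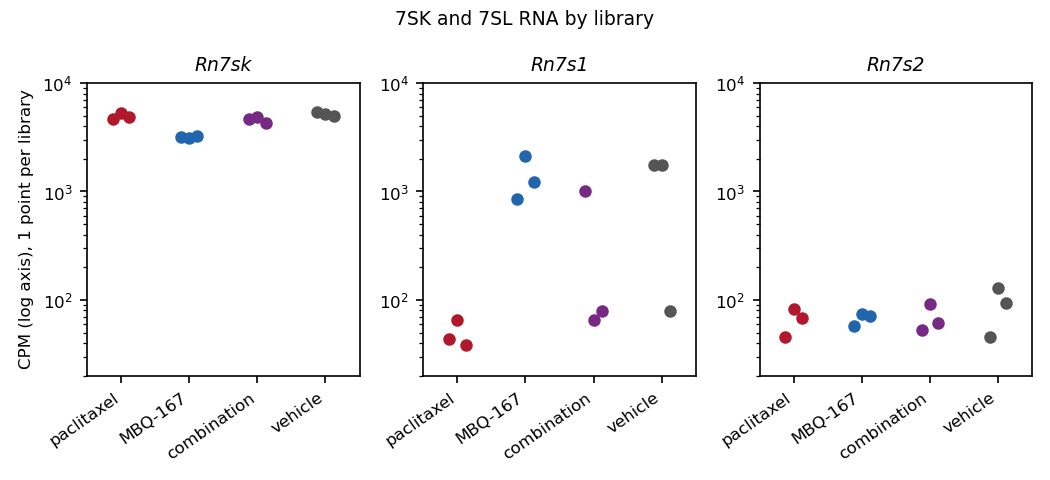
CPM of Rn7sk, Rn7s1 and Rn7s2 in each library on a log axis, by group. Rn7sk in the 3 MBQ-167 libraries (3088 to 3281 CPM) sits below all others, Rn7s1 splits into high and low libraries within the combination and vehicle groups, and Rn7s2 overlaps throughout.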

How the data were processed

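The authors deposited a table of raw counts with 1 column per library, which was used without any normalization of theirs. Per the submitters' processing notes HISAT2, HTSeq and DESeq2 were used with the build GRCm38. Their versions, the annotation, the strandedness and the treatment of reads with several matches were not given in the sources used. GENCODE vM21 (GRCm38) supplied symbols, coordinates, biotypes and GC content of transcripts, and 45143 of 46078 identifiers matched a symbol.

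Genes were filtered with filterByExpr (minimum count 10), which left 18252. All 12 libraries were fitted together by the quasi-likelihood method of edgeR 4.0.16 in R 4.3.3 after TMM scaling, with 8 residual degrees of freedom and a biological coefficient of variation of 0.214, and the contrast was paclitaxel minus MBQ-167 on the log2 scale. P-values were adjusted over all genes tested by the Benjamini-Hochberg method at a threshold of 0.05. CPM values use TMM-corrected library sizes. DESeq2 1.42.0 and limma 3.58.1 (voom) were run as alternatives, along with other filters, RLE scaling, a replicate block, a GC correction (a spline with 5 degrees of freedom for each library) and the omission of each library. The fits were tested on simulated data.

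The comparison, the 55 gene lists and the rules were chosen with earlier results of these data known. Of the 794 list genes, 764 were tested. Lists are described by counts and medians beside those of all genes. Library measures were compared by exact two-sided permutation over 20 splits. Genes were named by rule: with none past the threshold, the 10 smallest p-values in each direction among genes averaging 1 CPM or more whose drugs did not overlap, the 2 smallest p-values of each list, and 25 fixed genes. The Ifi200 family, the Zfp family, the small RNAs other than Rn7sk and Rn7s1, the genes called only by DESeq2 and other list members were named after their values were seen. A few genes are not reported singly here and not drawn in the heat maps, but count in the lists.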

Additional observations from a re-analysis of the deposited data

How the results depend on the processing

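The count of genes past the threshold was 0 in edgeR as fitted, and also with RLE scaling, limma voom, the stricter filter of 1 CPM in 3 libraries, protein-coding genes only, the GC correction, the replicate block over 12 libraries, and each library left out (0 to 0). It was 36 with DESeq2, 13 with no filter on low counts (11 higher, 2 lower in paclitaxel tumours) and 1, Rn7s1, in the 6 libraries alone. The replicate block on those 6 libraries also gave 1, Rn7s1, with 761 genes lower at an unadjusted p under 0.05. Libraries with the same number did not deviate together (correlations of 0.10, -0.05 and -0.11). With 3 libraries per drug, these values cannot exclude a pairing by number. Genes at an unadjusted p under 0.05 numbered 340 higher with the GC correction, and with 1 library left out 563 to 773 higher and 315 to 587 lower. DESeq2 called 2 to 21 genes with 1 library left out, 2 with the GC correction, and 83 in the 6 libraries alone, 30 of them among the 36; these 3 alternatives were added after seeing the data. Of 2833 values of named genes under alternatives, 50 passed the threshold in place of not passing, and 0 were counted as reversed. All 36 genes called by DESeq2 were added to the named genes for that reason. The number 50 thus follows largely from how genes were picked and does not measure their stability. A change of sign was counted as a reversal only where the gene passed in either fit. As no gene passed in edgeR as fitted, other changes of sign were not counted. Of 879 list medians, 36 moved by more than the spread between libraries. The list of mitochondrially encoded genes took the other sign with the GC correction (-0.15 in place of 0.21). The causes were not tested. Genes near 1 CPM, such as Ncr1, rest on few counts. The omission of each vehicle library, for the medians against vehicle, was added after seeing the data.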

Other observations

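Aryl hydrocarbon receptor targets did not move together. Tiparp, an ADP-ribosyltransferase and a classical target, had 60.0, 48.6 and 48.2 CPM in paclitaxel tumours, against 40.2, 46.0 and 38.3 CPM in MBQ-167 tumours. Ahrr, the repressor of the same receptor, lay in the other direction at 0.43, 0.32 and 0.06 CPM in paclitaxel tumours, against 0.93, 1.01 and 0.49 CPM in MBQ-167 tumours. Both genes were apart, and neither passed in edgeR, where the adjusted threshold was 0.05.

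Of 17 chemokine genes, 12 had values above 0, with a median of 0.25, and 3 (17.6%) were apart, namely Ccl2, Ccl4 and Ccl6. Ccl6 had 115, 128 and 137 CPM in paclitaxel tumours, against 88.9, 111 and 92.2 CPM in MBQ-167 tumours. The chemokine median was 0.03 without paclitaxel library 2, 0.11 without MBQ-167 library 1, 0.09 without MBQ-167 library 3, 0.15 without paclitaxel library 1 and 0.15 after correction for GC content. Of 13 genes of inflammatory cytokines and mediators, 9 had values above 0, with a median of 0.24 (0.11 after correction for GC content, 0.14 without MBQ-167 library 1), and 3 (23.1%) were apart and above, namely Il1a, Il6 and Il1rn, while Tgfb1 was apart and below. Il1a, the interleukin 1 alpha gene, had 12.6, 9.80 and 8.90 CPM in paclitaxel tumours, against 7.09, 5.42 and 8.89 CPM in MBQ-167 tumours, and Il6 was apart at values near 1 CPM. Gpnmb, a membrane glycoprotein gene that is in none of the lists, was high in a single library, at 11.4, 55.2 and 4.97 CPM in paclitaxel tumours, against 7.45, 4.69 and 5.66 CPM in MBQ-167 tumours. It was among the 13 genes called with no filter on low counts, although the groups overlapped.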
